A study of Mus musculus with 12 samples.

Results

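Imprinted genes are genes of which mainly 1 parental copy is active, and a list of 40 of them known from mouse was looked up by symbol among 43280 gene rows of the count table, and all 40 had a row. Of these, 38 had at least 10 counts summed over the 12 libraries, and 36 of the 13104 genes that passed the filter on low counts were members of the list. Snurf had 0 counts in 55184254, which allows at most 0.0544 CPM (counts per 1000000 counts of the library, counting error only), and Phlda2 had 3. Snurf shares exons and strand with Snrpn in the annotation, so its reads may stand in the Snrpn row. Peg12, with 94 counts in all, and the antisense RNA Airn, with 45, did not pass that filter. In an edgeR fit that kept every gene with at least 10 counts, their log2 fold changes (MMS relative to control) were -0.06 (SE 0.49, adjusted p = 0.979) for Peg12 and 1.28 (SE 0.64, adjusted p = 0.611) for Airn.

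Whether the maternal or the paternal copy of such a gene is transcribed follows DNA methylation marks laid down in the germ line. Most lie in clusters under the control of a shared imprinting control region, and many clusters pair protein-coding genes of one parental copy with a long noncoding RNA of the other. In the hypothalamus, imprinted genes are known for roles in feeding, growth, thermoregulation, maternal care and the timing of puberty. Loss of the paternal or maternal contribution of the cluster that holds Snrpn, Ndn, Magel2 and Ube3a underlies Prader-Willi and Angelman syndromes. The expressed copy given for each gene here is background and was not checked for this tissue, since the libraries cannot tell the alleles apart.

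The libraries came from hypothalami of C57/Bl6 mouse pups taken at postnatal day 6 (P6), 6 in the Control group and 6 in the MMS group. MMS stands for modified maternal separation, in which pups were kept away from the dam for a short period each day and repeatedly turned onto their backs, and the tissue was taken straight after the last session. Control pups were not put through it. By the study's methods the pups were male and litters held pups of both groups, but nothing in the sample titles ties a library to a litter. Library totals were 3765759 to 6560620 counts in controls and 3218777 to 5344080 in MMS. On the first principal component of all genes (30.4% of variance), MMS 2 lay at 57.8 and MMS 4 at 46.3, with the other 10 libraries at -14.4 to -3.04. They also had the lowest summed levels of 15 ependymal cilia genes, 36.5 and 62.8 CPM against 106 to 227 in controls. The same libraries had the lowest summed levels of 6 neuron genes, 5110 and 5101 CPM against 6063 to 7198 elsewhere, and the highest of 6 astrocyte genes, 2071 and 2080 CPM against 1435 to 1832. Tubb3 had the highest level of these neuron genes, at 3163 ± 175 CPM in controls and 2257 ± 854 in MMS (SD, n = 6 each). By log2 fold change Tubb3 was lower in MMS (-0.49), while 4 of the 6 neuron genes were higher. Of 22 hypothalamus markers, 21 were tested and none was at 0, while none of 8 pituitary genes passed the count filter. Of these 8, Pou1f1 and Fshb were at 0, Cga and Gh had 317 and 163 counts over all libraries, and the summed level reached 25.3 CPM in Control 6 and 41.5 CPM in MMS 3.

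Meg3, Rian, Mirg and H19, all imprinted long RNAs, are hosts of microRNAs, and their polyadenylated host transcripts are what these libraries measured, not the mature microRNAs. A total of 37 mature sequences (RefSeq, GRCm38.p6) lay within them, 26 in Mirg, 6 in Rian, 3 in Meg3 and 2 in H19. Their seeds (bases 2 to 8, in capitals) were nearly all different, with 36 distinct seeds and 1 shared by miR-453 and miR-496a-5p, both in Mirg. The sequences below show that shared seed first and then 1 or 2 examples for each host, to show how the small RNAs of these hosts differ in sequence.
miR-453 (Mirg): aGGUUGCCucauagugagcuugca
miR-496a-5p (Mirg): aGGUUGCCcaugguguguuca
miR-134-5p (Mirg): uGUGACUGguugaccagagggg
miR-410-3p (Mirg): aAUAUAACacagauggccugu
miR-770-5p (Meg3): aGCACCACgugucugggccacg
miR-370-3p (Rian): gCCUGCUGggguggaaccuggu
miR-675-5p (H19): uGGUGCGGaaagggcccacagu

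The 40 genes took 1.501% ± 0.121 of all counts in controls and 1.512% ± 0.164 in MMS (SD, n = 6 each), and the libraries ran from 1.29% to 1.65% and from 1.35% to 1.79%. Reads started from the poly(A) end of each RNA, so a level in CPM reflects the number of 3′ ends and was not divided by transcript length. Nnat, a small membrane protein of the endoplasmic reticulum in neurons, held 31.1% of all member counts, and the noncoding RNA Meg3 held 15.1%. The mean level reached 100 CPM in 17 members, was 10 to 100 CPM in 16 and was under 10 CPM in 7.

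**Figure D1:**
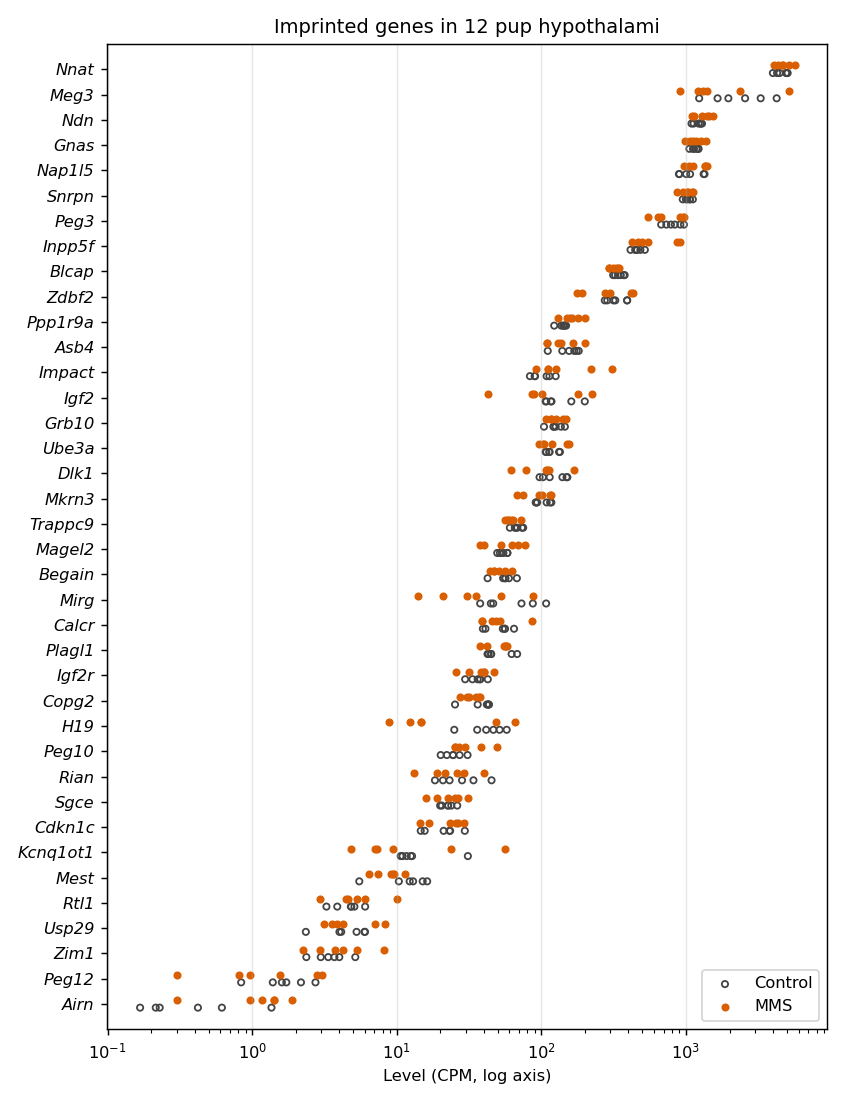
Level in each library of the 38 imprinted genes with at least 10 counts in all, in CPM on a log axis, with open circles for the 6 Control and filled circles for the 6 MMS libraries. Nnat lies highest and Airn lowest, and the points of Meg3, Mirg, H19, Igf2 and Kcnq1ot1 spread much wider than those of the genes around them.

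The first question was whether MMS altered the levels of imprinted genes. No difference was detectable at the threshold used, an adjusted p under 0.05 in edgeR's quasi-likelihood test over all tested genes. No imprinted gene passed (0 of 36, smallest adjusted p = 0.543), as no gene did in the whole table (0.0% of 13104, 0 genes). At an unadjusted p under 0.05, 4 of 36 members were called (11.1%), against 1190 of all tested genes (9.08%). All 4 were higher in MMS, against 4.68% of all genes called higher, and 0 were lower, against 4.4% of all genes. In no member did the 2 groups' ranges fail to overlap, against 0.389% of all tested genes. DESeq2 also called 0 members past the threshold, where it called 7 genes of the whole table. By DESeq2, 4 of the 36 members were at an unadjusted p under 0.05, against 6.23% of all genes in that fit (1467 of 23550). That fit had no count filter, so its share includes low-count genes of a kind left out of the 36 members. These 2 shares are therefore not on the same footing.

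Over the 36 tested members, 17 were higher in MMS and 19 lower. The median log2 fold change (MMS relative to control) was -0.0021, beside 0.0009 over all tested genes, and the median absolute log2 fold change was 0.14, beside 0.15. In 27 members it was under 0.25, and in 21 the 95% interval of the fold change lay between 0.67 and 1.5. The extremes were Mirg at -0.73 and Impact at 0.67. Split by the copy listed as expressed, 10 of 19 paternally expressed genes were higher, with a median of 0.04. Of 11 maternally expressed genes, 5 were higher, with a median of -0.01. Among the 3 genes with a maternal bias (Blcap, Copg2 and Trappc9), 0 were higher and the median was -0.14. Of the 3 whose expressed copy depends on the isoform (Gnas, Grb10 and Inpp5f), 2 were higher and the median was 0.01.

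**Figure D2:**
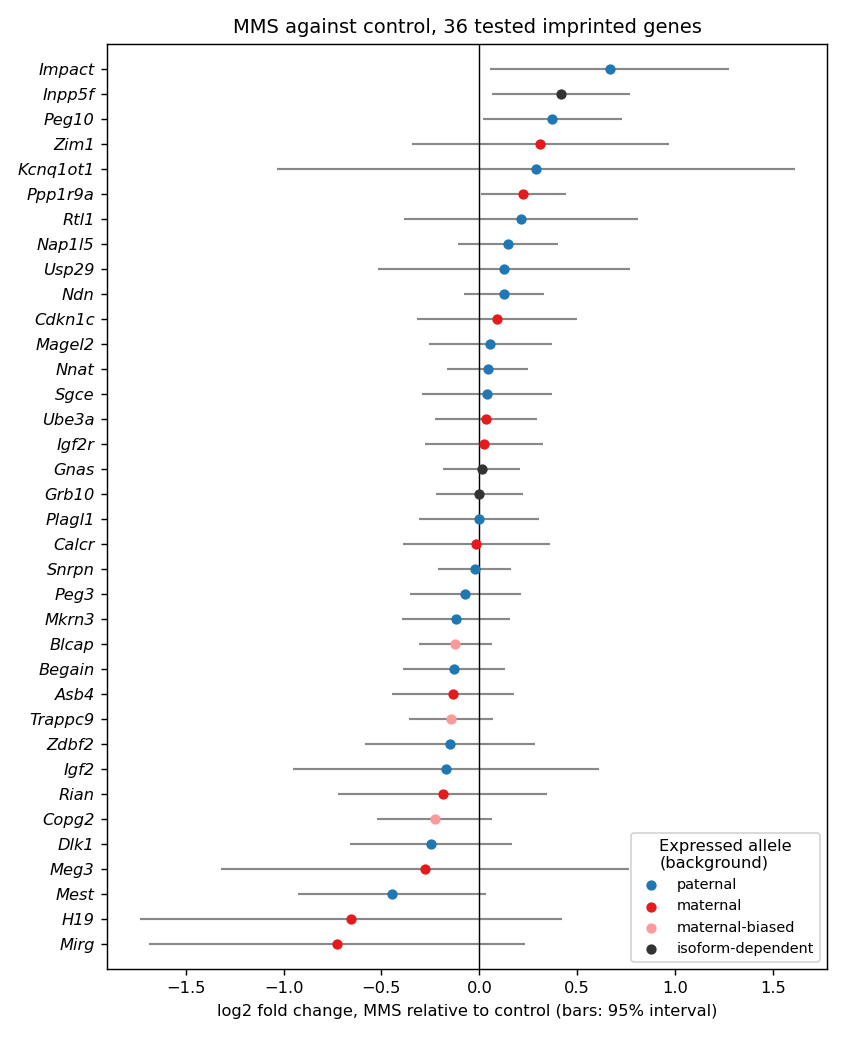
log2 fold change of each of the 36 tested imprinted genes, MMS relative to control. Bars give the 95% interval and colours the parental copy listed as expressed. Intervals of 4 genes, Impact, Inpp5f, Peg10 and Ppp1r9a, lie above 0, and the widest intervals belong to Kcnq1ot1, H19, Meg3 and Mirg.

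Inpp5f, a phosphoinositide phosphatase of endosomes (chr7:128611328-128696425, plus strand, GRCm38), had the smallest p among the members. Its levels were 445, 459, 484, 413, 519 and 452 CPM in Control 1 to 6 and 426, 902, 463, 863, 546 and 498 CPM in MMS 1 to 6. MMS 2 and MMS 4 were far above every control, MMS 5 was slightly above, and the other 3 were within the control range. The log2 fold change was 0.42 (SE 0.17, adjusted p = 0.543). A brain transcript of Inpp5f from an internal promoter is the imprinted one. The annotation has 3 coding transcripts whose starts span 77129 bases and whose 3 ends lie together, so these 3′ reads cannot separate the imprinted from the biallelic form.

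Impact, which restrains the translation-control kinase GCN2 and is abundant in hypothalamic neurons, had the largest positive difference. Its levels were 89.8, 125.5, 90.4, 109, 83.3 and 114 CPM in Control 1 to 6 and 92.5, 308, 110, 220, 111 and 125.3 CPM in MMS 1 to 6. Only MMS 2 and MMS 4 lay above the controls. On the log2 scale MMS exceeded control by 0.67 (SE 0.28, adjusted p = 0.543).

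Peg10 is a paternally expressed gene derived from a retrotransposon (chr6:4747306-4760517, plus strand). In Control 1 to 6 it was 22.2, 20.1, 27.2, 24.5, 30.9 and 24.4 CPM, with a median of 24.5. In MMS 1 to 6 it was 26.9, 49.2, 29.7, 38.0, 25.1 and 25.1 CPM, with a median of 28.3. Again MMS 2, at 49.2 CPM, and MMS 4, at 38.0 CPM, were the 2 libraries above every control. The log2 fold change for Peg10 came to 0.37 (SE 0.17, adjusted p = 0.543).

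Ppp1r9a, which encodes the synaptic scaffold neurabin and lies in the same cluster (chr6:4902917-5165661, plus strand), was 148, 145, 144, 137, 141 and 123 CPM in Control 1 to 6. In MMS 1 to 6 it was 162, 202, 157, 178, 131 and 151 CPM, so that 5 of 6 MMS libraries lay above every control, with MMS 2 and MMS 4 again the highest. The difference for Ppp1r9a was 0.23 on the log2 scale (SE 0.11, adjusted p = 0.544). The other 3 tested genes of this cluster did not pass at an unadjusted p under 0.05. Sgce, a sarcoglycan transcribed from the promoter region it shares with Peg10 in the opposite direction, stood at 22.6 ± 2.28 CPM in controls and 23.4 ± 5.40 in MMS (SD, n = 6 each).

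Without MMS 2 and MMS 4 the log2 fold changes became 0.07 for Inpp5f, 0.11 for Impact, 0.10 for Peg10 and 0.11 for Ppp1r9a, and none of the 4 was called. The one member then at an unadjusted p under 0.05 was Magel2 (0.27, adjusted p = 0.961). Without MMS 2 alone or without MMS 4 alone, 0 members were called. Other single libraries also moved the count. It was 2 without Control 1, Control 3, Control 5 or Control 6, and 8 without MMS 1, when Mirg, H19, Mest and Meg3 were called lower in MMS. Over all tested genes the share called was 11.4% without MMS 1 (1509 of 13260), 5.28% without MMS 2, 5.35% without MMS 4 and 5.03% without both. Without Control 1, Control 3, Control 5 or Control 6 that share was 7.55%, 6.81%, 7.76% or 7.63%. The part of the neuron, astrocyte and ependymal marker levels of MMS 2 and MMS 4 in these 4 genes was not tested.

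**Figure D3:**
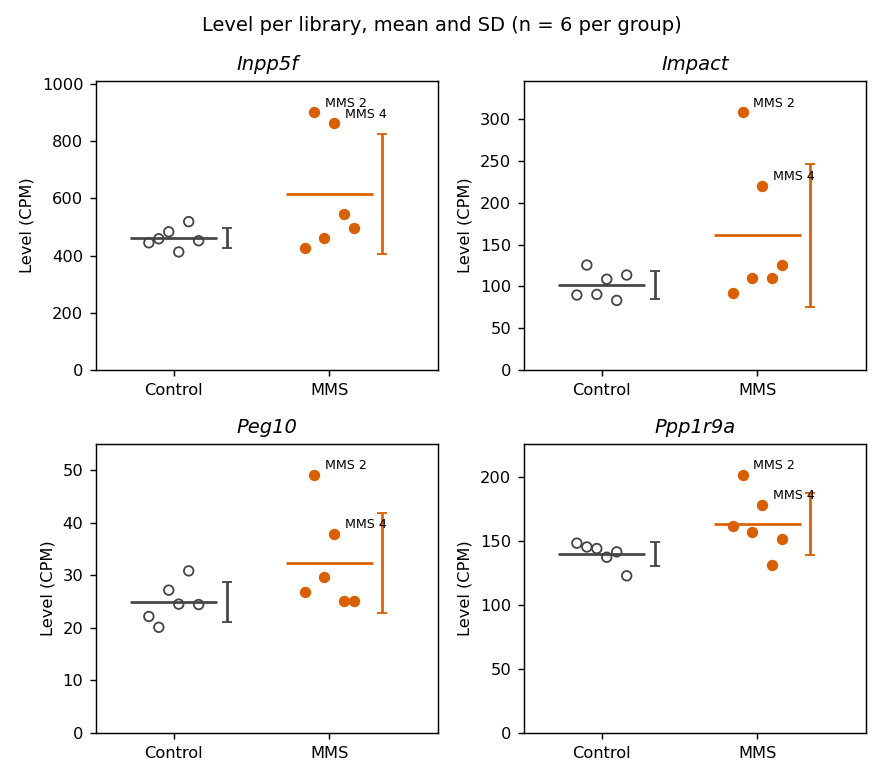
Level in CPM of the 4 imprinted genes at an unadjusted p under 0.05, 1 point per library, with the group mean as a line and the SD (n = 6) as a bar. MMS 2 and MMS 4 are labelled and are the highest libraries in all 4 genes, at 902 and 863 for Inpp5f and at 308 and 220 for Impact.

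Among genes of signalling and growth, 4 of 8 tested were higher in MMS. Gnas, the stimulatory G protein alpha subunit that couples many hypothalamic receptors to cAMP, was 1055 to 1221 CPM in controls (median 1157) and 978 to 1375 in MMS (median 1152), and the groups overlapped. Its log2 fold change was 0.01 (95% interval -0.18 to 0.21). Gnas has 16 coding transcripts with 9 start positions over 45967 bases and 10 ends within 500 bases of each other, so its imprinted and biallelic forms were counted as 1. Grb10, an adaptor that dampens insulin and growth factor receptors, was nearly equal in the groups, at 126 ± 14.1 and 126 ± 15.6 CPM. Dlk1, a transmembrane ligand of the Notch family, had a lower mean in MMS, at 106 ± 36.7 against 126 ± 24.0 CPM, with a log2 fold change of -0.25 (adjusted p = 0.680) that was -0.02 without MMS 2 and MMS 4. The clearance receptor Igf2r (36.2 ± 4.37 and 37.0 ± 7.48 CPM) and the cell cycle inhibitor Cdkn1c (21.2 ± 5.52 and 22.7 ± 5.85 CPM) differed between groups by less than their SD. Calcr, the calcitonin receptor, was 51.8 ± 9.74 CPM in controls and 51.7 ± 17.8 in MMS. Airn, the antisense RNA that overlaps Igf2r, averaged 0.50 ± 0.45 CPM in controls and 1.19 ± 0.53 in MMS on 45 counts, and Peg12 averaged 1.74 ± 0.65 and 1.58 ± 1.11.

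Igf2, a fetal growth factor (chr7:142650766-142666816, minus strand), and H19, the noncoding RNA of the opposite parental copy (chr7:142575529-142578143, minus strand), share an imprinting control region and enhancers. Igf2 was 108, 117, 199.5, 116, 107 and 161 CPM in Control 1 to 6 and 224, 100.5, 178, 86.0, 42.8 and 89.2 CPM in MMS 1 to 6. MMS 1 was above every control and 4 MMS libraries were below all of them. H19 was 25.0, 51.4, 57.5, 35.98, 41.5 and 46.6 CPM in Control 1 to 6 and 66.02, 14.8, 48.5, 8.87, 12.4 and 14.8 CPM in MMS 1 to 6. Here too MMS 1 was the highest of all libraries, MMS 3 lay within the control range and the other 4 MMS libraries were below every control. The log2 fold changes were -0.17 (95% interval -0.95 to 0.61, adjusted p = 0.889) for Igf2 and -0.66 (95% interval -1.73 to 0.42, adjusted p = 0.675) for H19. Without MMS 2 and MMS 4 they were -0.02 and -0.28.

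In brain, Igf2 and H19 are known from the meninges and choroid plexus more than from neurons. For a list of 12 meningeal and fibroblast genes, the summed level without Ptgds was 137, 170, 267, 113, 155 and 169 CPM in Control 1 to 6 and 311, 116, 169, 90.5, 60.2 and 74.4 CPM in MMS 1 to 6. Of these 12 genes, 10 were tested, none was at 0, and with Ptgds the sum ran from 219 to 1212 CPM in controls and from 89.6 to 2182 in MMS. MMS 1 and Control 3 were the highest 2 libraries in both the summed level and Igf2, and MMS 5 was the lowest in both. For H19 the highest 2 libraries were the same, but the lowest was MMS 4, at 8.87 CPM. In MMS 2, H19 was below every control, at 14.8 CPM, while the summed level of 116 CPM lay within the control range. The choroid plexus sum was 1823 CPM in Control 3, which was the highest control for Igf2, and 23.2 to 57.1 elsewhere. Fewer cells of a type and less RNA per cell cannot be told apart in bulk tissue, and the part of meningeal tissue in the Igf2 and H19 values was not tested.

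**Figure D4:**
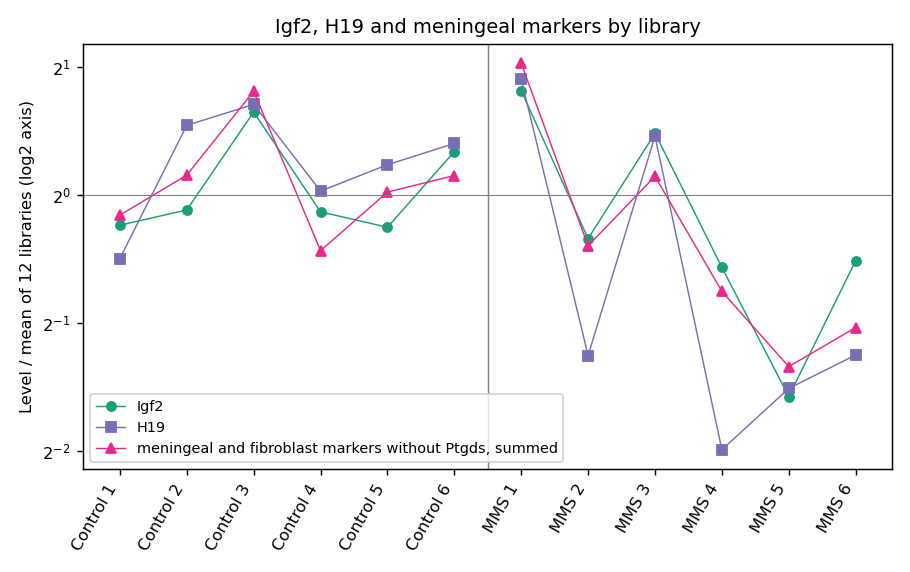
Level of Igf2, of H19 and of the summed meningeal and fibroblast genes without Ptgds in each of the 12 libraries, each divided by its mean over the libraries, on a log2 axis. Lines join the points of 1 measure for the eye only. All 3 are highest in MMS 1, high in Control 3, and low in MMS 4, MMS 5 and MMS 6.

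Among genes of membranes, traffic and secretion, 4 of 9 tested were higher in MMS. Nnat (chr2:157560078-157562522, plus strand) was 3988 to 5044 CPM in controls (median 4676) and 4041 to 5646 in MMS (median 4618), with 2 MMS libraries above the controls. Its log2 fold change was 0.04 with a 95% interval of -0.16 to 0.25, so the most abundant imprinted RNA of these hypothalami was among the most closely bounded. Blcap, a small membrane protein gene (chr2:157556362-157571274, minus strand) within whose bounds Nnat lies, was 313 to 377 CPM (median 346) in controls and 292 to 343 CPM (median 320) in MMS, and the log2 fold change was -0.12 (95% interval -0.31 to 0.06). Trappc9, a subunit of a vesicle tethering complex, was 68.2 ± 5.26 CPM in controls and 61.7 ± 5.79 in MMS. Mest, a protein with a hydrolase fold, had the third most negative difference, from 12.1 ± 3.83 to 8.90 ± 1.79 CPM, or -0.45 on the log2 scale (SE 0.23, adjusted p = 0.562). Its neighbour Copg2, a subunit of the coat of Golgi vesicles, was 38.8 ± 7.13 and 33.2 ± 3.97 CPM (log2 fold change -0.23, adjusted p = 0.609). The exons of Mest and Copg2 overlap on opposite strands, and the sources used here do not state whether counting used strand. Begain, a postsynaptic protein, was 56.1 ± 8.19 and 51.1 ± 7.01 CPM.

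Of the 5 tested transcription and nuclear factors, 2 were higher in MMS. Nap1l5, a histone chaperone relative without introns in its coding part, was 894 to 1343 CPM in controls (median 1035) and 976 to 1386 in MMS (median 1237), with 3 MMS libraries above every control. The log2 fold change was 0.15 (95% interval -0.11 to 0.40). Peg3, a zinc finger protein known from maternal care (chr7:6703892-6730431, minus strand), was 673 to 967 CPM (median 812) in controls and 542 to 961 CPM (median 786) in MMS, a log2 fold change of -0.07 (95% interval -0.36 to 0.21). Zdbf2, a zinc finger protein linked to feeding of newborn mice, was 274 to 392 CPM (median 320) in controls and 177 to 432 CPM (median 285) in MMS, and the MMS range held the whole control range. Plagl1, a regulator of other imprinted genes, was 50.9 ± 11.2 and 50.9 ± 8.73 CPM, and Zim1, a neighbour of Peg3, was 3.60 ± 0.96 and 4.44 ± 2.11 CPM.

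The cluster of Prader-Willi and Angelman syndromes had 5 tested members, 3 of them higher in MMS, with log2 fold changes from -0.12 to 0.13. Ndn, a MAGE protein that promotes the survival of neurons (chr7:62346569-62350262, plus strand), was 1092 to 1290 CPM (median 1238) in controls and 1096 to 1539 CPM (median 1344) in MMS, and 3 MMS libraries exceeded every control. Magel2, its relative in endosomal recycling, was 49.5 to 58.2 CPM (median 53.9) in controls and 37.6 to 77.2 CPM (median 57.7) in MMS. The 6 control values of Magel2 thus lay within a narrow band, while 2 MMS libraries were below it and 3 above it. Snrpn, a protein of the spliceosome in neurons, was 949 to 1115 CPM (median 1040) in controls and 866 to 1126 CPM (median 1027) in MMS, a log2 fold change of -0.02 (95% interval -0.21 to 0.16).

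Mkrn3, whose loss leads to early puberty, was 91.3 to 117 CPM (median 101) in controls and 67.4 to 116 CPM (median 97.9) in MMS. Ube3a, the ubiquitin ligase lost in Angelman syndrome, was 107 to 134 CPM (median 114) in controls and 96.0 to 155 CPM (median 111) in MMS, with a log2 fold change of 0.04 (95% interval -0.23 to 0.30). Ube3a exons overlap those of the antisense RNA Snhg14 in the annotation. With Mkrn3 and Ube3a, the ubiquitin group had Asb4, a subunit of ubiquitin ligases known from hypothalamic feeding neurons, at 111 to 181 CPM (median 162) in controls and 109 to 199.9 CPM (median 133) in MMS, and Usp29, a deubiquitinase, at 4.63 ± 1.42 and 5.02 ± 2.13 CPM. Of these 4, 2 were higher in MMS, and none passed at an unadjusted p under 0.05.

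The widest spread between pups was among the imprinted noncoding RNAs. The biological coefficient of variation, which is the spread between libraries of a group beyond counting error, had a median of 18.5% over members and 19.3% over all tested genes. It exceeded 30% in 7 members. These were the noncoding RNAs Kcnq1ot1 (69.3%), H19 (57.4%), Meg3 (54.8%) and Mirg (51.0%), and the coding genes Igf2 (41.8%), Impact (33.2%) and Usp29 (30.8%). The noncoding RNA Rian was below them, at 29.5%. The highest library was 11.6 times the lowest for Kcnq1ot1, 7.70 times for Mirg, 7.44 times for H19 and 5.67 times for Meg3, against 1.42 times for Nnat and 1.34 times for Trappc9.

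Meg3 (chr12:109541001-109571726, plus strand) is the maternally expressed long RNA that begins the noncoding run of the Dlk1-Dio3 cluster and is largely kept in the nucleus. Its levels were 4235, 2562, 3284, 1653, 1963 and 1233 CPM in Control 1 to 6 and 5155, 2353, 1211, 909 (MMS 4), 1310 and 1393 CPM in MMS 1 to 6. MMS 1 was above every control, and MMS 3 and MMS 4 were below every control. The log2 fold change was -0.28 (95% interval -1.32 to 0.77, adjusted p = 0.862), and with 1 library left out it ran from -0.06 without Control 1 to -0.78 without MMS 1 (adjusted p = 0.436). Without MMS 2 and MMS 4 it was -0.13.

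Mirg (chr12:109729764-109749460, plus strand), the microRNA host at the far end of the same run, was 108, 72.8, 87.2, 44.7, 46.4 and 37.7 CPM in Control 1 to 6 and 87.6, 35.2, 20.9, 14.0, 30.6 and 52.5 CPM in MMS 1 to 6. MMS 2, MMS 3, MMS 4 and MMS 5 were below every control, and MMS 1 and MMS 6 lay within the control range. For Mirg the log2 fold change was -0.73 (95% interval -1.69 to 0.23, adjusted p = 0.611), and with 1 library left out it ran from -0.53 without MMS 4 to -1.12 without MMS 1 (adjusted p = 0.371). Without MMS 2 and MMS 4 it was -0.45. Rian (chr12:109603940-109661716, plus strand), a host of small nucleolar RNAs and microRNAs between them, was 18.4 to 45.2 CPM (median 25.7) in controls and 13.1 to 40.3 CPM (median 23.8) in MMS. On the paternal copy of the same cluster, Rtl1, derived from a retrotransposon and antisense to microRNAs of the maternal copy, was 3.26 to 6.04 CPM (median 4.83) in controls and 2.94 to 9.98 CPM (median 4.94) in MMS. Of the 6 tested members of the cluster, 1 was higher in MMS, and their log2 fold changes ran from -0.73 to 0.21.

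Kcnq1ot1, the paternally expressed antisense RNA within Kcnq1 (chr7:143203458-143296549, minus strand), was 31.0, 12.5, 12.7, 11.7, 10.6 and 10.96 CPM in Control 1 to 6 and 56.2, 23.6, 4.85, 9.40, 7.26 and 7.09 CPM in MMS 1 to 6. Control 1 and MMS 1 stood well above the rest of their groups, and 4 MMS libraries were below every control. The log2 fold change was 0.29 (95% interval -1.04 to 1.61), but -0.50 without MMS 1, and with all 12 libraries it was -0.14 by limma-voom. Reads of Kcnq1ot1 and Kcnq1 can be told apart only where counting used strand.

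These RNAs were set beside 4 long RNAs from elsewhere in the genome that are known to stay in the nucleus. The 4 were Malat1, Neat1, Miat and Snhg11, chosen after the values above had been seen. Their summed level was 1337, 837, 1206, 512, 550 and 366 CPM in Control 1 to 6 and 1801, 1027, 424, 337, 352 and 429 CPM in MMS 1 to 6. Ranked by this sum, the 6 controls stood in the same order as when ranked by Meg3, and among MMS libraries the order differed only in MMS 3 and MMS 5. Kcnq1ot1 was 10.6 to 12.7 CPM in Control 2 to 6, where the sum ran from 366 to 1206 CPM. Snhg11 made up most of the sum, at 647 ± 328 CPM in controls and 586 ± 472 in MMS, and alone put the controls in the order of Meg3. Malat1, Neat1 and Miat, each taken alone, put the controls in other orders than Meg3 did. The sum did not separate the groups, at 801 ± 397 CPM in controls and 728 ± 586 in MMS. The part of nuclear RNA content in the values of Meg3, Mirg, Rian and Kcnq1ot1 was not tested.

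**Figure D5:**
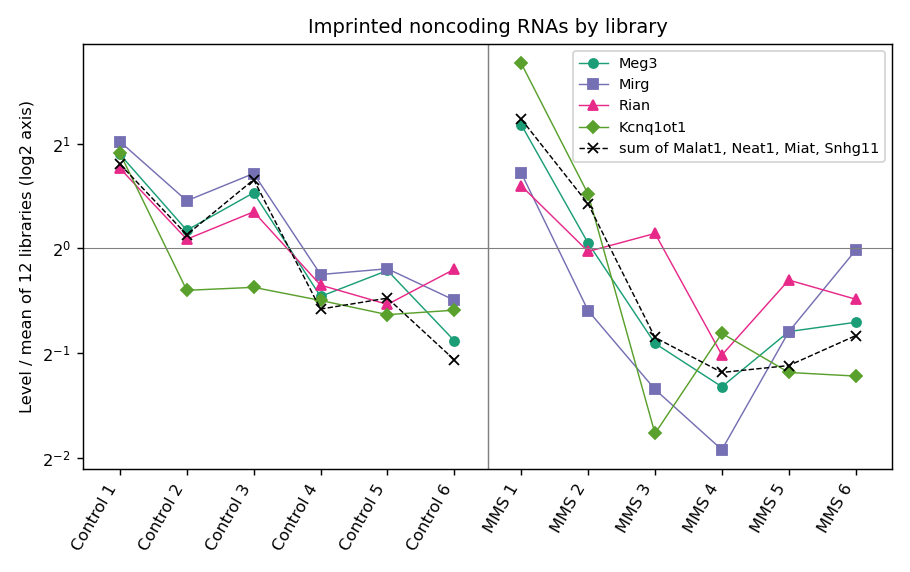
Level of Meg3, Mirg, Rian and Kcnq1ot1 and of the summed nuclear RNAs Malat1, Neat1, Miat and Snhg11 in each of the 12 libraries, each divided by its mean over the libraries, on a log2 axis. Lines join the points of 1 measure for the eye only. Meg3 follows the summed nuclear RNAs closely, with the highest values in Control 1 and MMS 1, and Kcnq1ot1 spans the widest range.

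The next question was whether neighbours in a cluster varied together between pups within their group. Log2 CPM less the group mean was compared over the 10 libraries other than MMS 2 and MMS 4, for 14 pairs of neighbours, with exact two-sided permutation within groups and Benjamini-Hochberg adjustment over the pairs. The pair Meg3 and Mirg, both maternally expressed from the same strand, was the only one past 0.05, with Pearson's r = 0.90 (exact permutation p = 5.79e-05, adjusted p = 0.00081) and Spearman's rho = 0.94 (exact permutation p = 0.000116, adjusted p = 0.00162). It was 0.80 without the 2 libraries farthest from the median, and without MMS 5 its adjusted exact permutation p was 0.0502 at r = 0.90. The summed nuclear RNAs above put the controls in the same order as both genes did, and their correlation with these genes was not tested.

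Igf2 and H19 had r = 0.90 (exact permutation p = 0.0120, adjusted p = 0.0562) and rho = 0.95 (exact permutation p = 0.0105, adjusted p = 0.0737). These 2 genes are listed under opposite parental copies, but which copies were active in this tissue was not measured. Meg3 and Rian had r = 0.80 (adjusted exact permutation p = 0.0535), and 0.51 without the 2 libraries farthest from the median. Ndn and Magel2, 2 neighbours on the paternal copy, had r = 0.80 (adjusted exact permutation p = 0.137), and 0.45 without the 2 farthest libraries. For Nnat and Blcap, with r = -0.04, and for Cdkn1c and Kcnq1ot1, with r = 0.03, no relation was detectable with 10 libraries. Snrpn and Ube3a, on opposite parental copies, had r = -0.62 (adjusted exact permutation p = 0.203). The other 7 pairs had r between -0.45 and 0.64, and none passed.

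A pair of further lists gave the surroundings of these genes. Of 41 other imprinted genes, 27 were tested and 13 were higher in MMS, with a median log2 fold change of -0.07 and none past the adjusted threshold. At an unadjusted p under 0.05, 1 was higher and 1 lower, beside the same 4.68% and 4.4% of all tested genes. Herc3, a ubiquitin ligase whose intron holds Nap1l5, was 27.0 ± 4.59 CPM in controls and 35.7 ± 10.8 in MMS (log2 fold change 0.41, SE 0.18, adjusted p = 0.543), and its log2 fold change was 0.12 without MMS 2 and MMS 4. Dio3, which inactivates thyroid hormone and closes the cluster of Meg3 and Mirg, was 3.26 to 5.81 CPM in controls and 0.64 to 2.34 CPM in MMS, without overlap. Groups without overlap made up 0.389% of all tested genes. The log2 fold change of Dio3 was -1.52 (SE 0.34, adjusted p = 0.342), on 156 counts in all. Without MMS 2 and MMS 4 it was -1.47 (SE 0.42, adjusted p = 0.572). The members of the same cluster showed no such separation, and the difference between Dio3 and them was not tested.

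Of 16 genes that set or keep imprints, 13 were tested, 5 were higher and none passed the adjusted threshold. At an unadjusted p under 0.05, 0 of the 13 were higher and 2 of the 13 were lower, beside 4.68% and 4.4% of all tested genes. Ctcf, the insulator protein that binds the control region between Igf2 and H19, was 71.0 ± 9.69 CPM in controls and 53.8 ± 11.9 in MMS (log2 fold change -0.40, SE 0.14, adjusted p = 0.543). Ehmt2, a histone H3 methyltransferase, was 173 ± 16.7 and 148 ± 10.9 CPM (log2 fold change -0.23, SE 0.10, adjusted p = 0.543). For both genes the 2 groups' ranges overlapped. Without MMS 2 and MMS 4 the log2 fold changes were -0.30 for Ctcf (adjusted p = 0.961) and -0.19 for Ehmt2 (adjusted p = 0.961).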

How the data were processed

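Hypothalamic RNA of 12 pups was sequenced by the authors with a 3′ mRNA kit (QuantSeq) on the Ion Proton platform and aligned to mm10. The deposited table holds raw read counts per gene symbol, with no normalization. What counted the reads, on which annotation and with which strand setting, is not given in these sources, so overlapping genes may share reads. The members, lists and tests were chosen with earlier results of these data known, and the MMS libraries left out of some fits likewise.

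Counts were tested with edgeR 4.0.16 in R 4.3.3 (TMM, robust quasi-likelihood fit, low-count filter at 10 reads per library scaled to depth and 15 in total, Benjamini-Hochberg over all genes tested), which was checked on simulated counts. CPM values are TMM-scaled. Alternatives were no filter, the members' rule as filter, median-ratio scaling, DESeq2 1.42.0, limma 3.58.1 with voom, a replicate block and leaving out libraries. Coordinates are from GENCODE M21 (GRCm38, 1-based). Correlations used log2 CPM with a prior count of 2 and 17280 permutations. Per-library values are given for members at an unadjusted p under 0.05 and summarised for the 3 highest members of each role; those of Meg3, Mirg, Kcnq1ot1, Igf2 and H19 were added after their spread was seen. No pair of libraries of a group was alike within sampling noise (chi-square per degree of freedom 4.04 to 31.5 over 30 pairs). The study's methods give 10 pups per group from 10 independent litters for neonatal experiments, unless stated otherwise, with the sequenced samples picked at random. The titles do not say that libraries are separate litters, so p-values measure the spread between these libraries. The limit given for Snurf covers counting error only.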

Additional observations from a re-analysis of the deposited data

Results flagged for a closer look

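A total of 4 values lay far from the other 5 libraries of their group by Dixon's test at the 95% level, out of 72 sets of 6 values, where about 3.6 would be flagged by chance (1 in 20). Meg3 in MMS 1 was 5160 CPM, with the others at 909 to 2350. Kcnq1ot1 in Control 1 was 31.0 CPM, with the other controls at 10.6 to 12.7, and Kcnq1ot1 in MMS 1 was 56.2 CPM, with the other MMS libraries at 4.85 to 23.6. Calcr, the calcitonin receptor, in MMS 3 was 86.3 CPM, with the others at 38.7 to 51.9.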

How the results depend on the processing

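No imprinted gene passed the adjusted threshold in any of 684 member fits (12 settings that leave out 1 library and 7 others), where the smallest adjusted p was 0.264 for Ppp1r9a without MMS 5. All of Inpp5f, Impact, Peg10 and Ppp1r9a were higher in MMS in every fit. Genes past the threshold in the whole table numbered 0, but 1 without a count filter, 7 by DESeq2, 5 without MMS 2 and MMS 4, and 0 to 1 with 1 library left out (1 without MMS 2 or MMS 4). Members at an unadjusted p under 0.05 numbered 1 without MMS 2 and MMS 4 and 0 to 8 with 1 library left out. All genes at that level numbered 674 without MMS 2 and MMS 4, 2039 without a filter and 700 to 1804 with 1 library left out (700 without MMS 2, 707 without MMS 4, 1804 without MMS 5). By limma-voom the members called at an unadjusted p under 0.05 were H19 and Mirg, lower in MMS, and Impact and Inpp5f, higher, so that Peg10 and Ppp1r9a were not called. Of all tested genes, 10.3% were at that level by limma-voom. The members' median log2 fold change was -0.0508 to 0.0282 with 1 library left out. Pairs past the threshold numbered 3 where the group mean was kept and 0 to 4 with 1 library left out (0 without MMS 5, 2 without Control 6, 4 without MMS 3).

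Signs changed in 57 member fits, in 18 of 36 members. With median-ratio scaling they were Grb10 (0.00549) and Plagl1 (0.00275), by DESeq2 Grb10 (0.0059) and Plagl1 (0.00446), and without a filter Grb10 (0.0102) and Plagl1 (0.00943). By limma-voom they were Magel2 (-0.00448), Kcnq1ot1 (-0.143), Igf2r (-0.0154), Plagl1 (0.000253) and Sgce (-0.00757). Without MMS 2 and MMS 4 they were Peg3 (0.0924), Mkrn3 (0.056), Snrpn (0.0525), Ube3a (-0.163), Grb10 (0.0521), Plagl1 (0.00784), Zdbf2 (0.107), Sgce (-0.00147), Asb4 (0.0253) and Calcr (0.156). With 1 library left out, log2 fold changes that changed sign ran from -0.0405 to 0.068 for Gnas, -0.0143 to 0.092 for Nnat, -0.142 to 0.0194 for Peg3, -0.0646 to 0.248 for Usp29, -0.0187 to 0.36 for Rtl1, -0.0502 to 0.156 for Magel2, -0.0551 to 0.0264 for Snrpn, -0.0416 to 0.0928 for Ube3a, -0.438 to 0.0145 for Igf2, -0.495 to 0.634 for Kcnq1ot1, -0.0543 to 0.123 for Igf2r, -0.0503 to 0.054 for Grb10, -0.0509 to 0.0992 for Plagl1, -0.0512 to 0.143 for Sgce and -0.217 to 0.0674 for Calcr. Correlations did so for Mest and Copg2 (-0.0146 to 0.569), Nnat and Blcap (-0.255 to 0.2) and Cdkn1c and Kcnq1ot1 (-0.614 to 0.295). The cause was not tested.

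Over all tested genes, libraries with the same replicate number deviated together little (r from -0.0476 to 0.116 over the 6 pairs), so the main fit did not pair them by number. Single genes could differ from this. Control 1 and MMS 1 were each the highest of their group for Meg3 (4235 and 5155 CPM) and Kcnq1ot1 (31.0 and 56.2 CPM). Whether same-numbered libraries share a litter is not stated, and these values do not settle it. With the number as a block, 1 gene of the whole table and 0 members passed, 4 members were called at an unadjusted p under 0.05 (Impact and Inpp5f higher, Mirg and Dlk1 lower), and the sign changed for Kcnq1ot1 (-0.0815) and Plagl1 (0.00555). In that fit 9.34% of all tested genes were at an unadjusted p under 0.05.

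Counts were lowest for Airn, Peg12 and Phlda2, which the main count filter left out.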
